A study of Homo sapiens with 4 samples.

Results

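Total RNA was compared between wild-type SW480 cells and SW480 cells labelled IMP1-/-, gene by gene, from 1 RNA library on each side. SW480 is an established epithelial line from a human colorectal adenocarcinoma. Genes were taken into the comparison where both libraries together held at least 50 reads, which kept 10875 of the 19192 genes in the table. Each library was made from 3 pooled culture plates, so plates cannot be separated, and each genotype is 1 cell population, so genotype cannot be told apart from clone, passage or culture. For wild-type RNA the labels disagree, with SW840 as the cell line and SW480 as the source name; SW480 was assumed here and the conflict is unresolved. How the knockout was made is not given in the sources used here.

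IMP1, gene symbol IGF2BP1, belongs to the insulin-like growth factor 2 mRNA-binding proteins, which bind mRNAs and affect their stability, localisation and translation. It is abundant in the embryo, low in most adult tissue and expressed again in many tumours, colorectal cancers among them. Libraries of total RNA show how much of each transcript was present, and the ribosome footprint libraries of the same 2 genotypes, quoted beside the RNA below, show how much of it lay under ribosomes.

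The wild-type library held 5551479 counts and the knockout-labelled library 4932388. The 8317 genes under the minimum took 0.57% of the wild-type and 0.621% of the knockout-labelled counts. Genes with exactly 50 reads, the lowest taken in, numbered 45 and had log2 changes from −4.89 to 2.69 with a median of 0.04, and the 24 genes with 49 reads, just outside, ran from −2.87 to 1.44 with a median of 0.21. Log2 changes below are knockout-labelled over wild type after scaling of the libraries, with intervals at the 95% level that cover counting error only. Without replicates there is no test and no p-value.

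IGF2BP1 itself (chromosome 17, 48997412 to 49055650) had 598 reads in the wild-type library against 571 in the other, a log2 change of 0.08 with an interval from −0.08 to 0.25. Its RNA was therefore no check of the label, and the second library is called knockout-labelled throughout. Of 8 epithelial markers 7 were measured: EPCAM stood at 1081 and 1143 reads and KRT19 at 2285 and 1906, while KRT20 had none in either. The others differed: VIL1, the villin of the intestinal brush border, had 160 and 2 reads, CDX2 268 and 103, CDH1 83 and 286, KRT8 16173 and 9172, and KRT18 26170 and 15373. Markers of leukocytes and fibroblasts had few or no reads, and no gene of those 2 lists reached the minimum. PTPRC, CD3E and MS4A1 of leukocytes and DCN, FAP and PDGFRB of fibroblasts had no read in either library. COL1A1 of fibroblasts had 10 and 26. PECAM1 was the sole endothelial marker measured of 5, with 34 reads on each side. Of 6 neuronal markers SNAP25 and TUBB3 were measured, at 54 and 276 reads in wild type against 20 and 120. Under the minimum, SYP (2 and 20) and MAP2 (1 and 14) went the other way, and RBFOX3 and STMN2 had no read. In bulk RNA, fewer cells with a transcript and less of it per cell cannot be told apart.

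A gene was called where it differed by at least 2-fold and its counting interval excluded no change. By that rule 695 genes (6.39% of those measured) were higher in knockout-labelled RNA and 908 (8.35%) were lower, 14.7% either way. A change of at least 4-fold was seen in 107 higher and 173 lower genes, and of at least 8-fold in 33 higher and 35 lower genes. The middle of the distribution was narrow: the median log2 change was −0.01 and the quartiles −0.43 and 0.39. At this depth every gene past 2-fold had an interval that excluded no change.

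**Figure D1:**
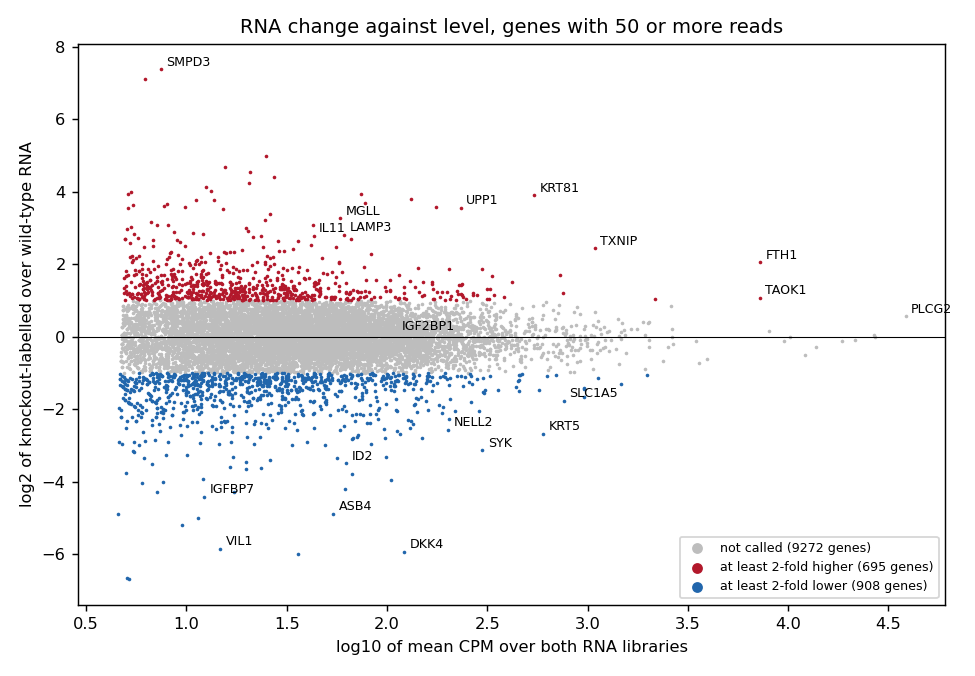
Each point is 1 of 10875 genes, with the log10 of its mean CPM (counts scaled to library size) over both RNA libraries on the x axis and the log2 of knockout-labelled over wild-type RNA on the y axis. The 695 genes called higher are red, the 908 called lower are blue, and IGF2BP1 lies among the grey genes not called.

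Genes were ranked by the bound of their interval nearest to no change, so that a fold on few reads ranks below the same fold on many. Genes with few reads still occur among those ranked first, such as ZNF22 below. The AP-1 transcription factors, dimers of JUN, FOS and related proteins, typically bind TGACTCA or TGAGTCA. Promoters were searched for TGANTCA, where N is any letter, which also takes in a middle A, as in LCN2 below, or T. Stretches from 5 promoters of higher genes that hold TGANTCA are shown. A larger share of promoters held it among higher genes than among all genes. Each is read 5′ to 3′ on the strand of the gene from the RefSeq promoter table (GRCh38.p14), with the TGANTCA match in capitals.

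GZMB, chr14:24634387-24634415, minus strand: gtggtccactcTGAGTCAtcagctgtggg
LCN2, chr9:128149390-128149418, plus strand: ttggcaaagaaTGAATCAacccaccctag
UPP1, chr7:48088586-48088614, plus strand: ctcgaagtgaaTGAGTCActtcccctcct
CD68, chr17:7579527-7579555, plus strand: gctgaggccccTGAGTCAggctgtgggtg
IL11, chr19:55370542-55370570, minus strand: ggcagggagggTGAGTCAggatgtgtcag

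The first capital lay 214 bases before the RefSeq start in GZMB, 52 in LCN2, 107 in UPP1, 100 in CD68 and 96 in IL11. In LCN2 that start lies 382 bases from the start of the counted transcript, in CD68 171 bases, and in the other 3 under 100 bases. Among 8279 measured genes with a promoter entry, 259 (3.13%) held TGANTCA, which reads the same on both strands, within 250 bases before the start. It was in 30 of the 497 higher genes (6.04%) and in 16 of the 638 lower genes (2.51%). A match is a description of letters and not a bound site, and genes are not replicates, so these shares carry no test.

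Enzymes of lipid and sterol handling were among the highest ranked genes. MGLL, which splits monoacylglycerols, had 60 wild-type and 525 knockout-labelled reads, 9.65-fold higher, with a log2 interval from 2.89 to 3.69. SULT2B1, a sulfotransferase acting on cholesterol and other hydroxysteroids in epithelia, went from 10 to 128 reads, a log2 change of 3.76 (2.90 to 4.92). Their footprints ran the same way, from 25 to 171 reads for MGLL and from 29 to 211 for SULT2B1.

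Secreted and surface signalling proteins formed another set on the higher side. HBEGF, a membrane-bound ligand of the EGF receptor, had 25 and 237 reads, 10.3-fold higher, and 17 and 140 footprints. IL11, an interleukin that signals through the shared receptor subunit gp130, had 60 and 374 reads, a log2 change of 2.78 (2.39 to 3.21). ROBO4, a receptor of the roundabout family, had 8 and 103 reads and 19 and 79 footprints. These 3 genes were 6.87-fold to 13.5-fold higher, on low wild-type counts. SEMA7A, a membrane-anchored semaphorin, rose from 43 to 245 reads, and GDNF, a neurotrophic ligand, from 54 to 307 reads with no footprint in either library.

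Single genes known from mucosal defence and lysosomes were also among those called higher. LTF, the iron-binding protein lactotransferrin, had 3 and 50 reads, a log2 change of 4.00 with a wide interval from 2.58 to 6.54. SLPI, an inhibitor of leukocyte proteases in mucus, had 93 and 471 reads, 5.60-fold higher, and 124 and 1430 footprints. The lysosomal membrane glycoproteins LAMP3 and CD68 rose from 84 to 533 and from 26 to 221 reads. CD68 is also used as a macrophage marker. Of the leukocyte markers CSF1R, a macrophage receptor, had 1 and 16 reads, CD14 had 14 and 0, and PTPRC none, and their part in the result was not tested. In the list closest to lysosomal enzymes, the cystatins and cysteine cathepsins, 1 of 9 was higher and 3 were lower. NLRP1, an inflammasome sensor of epithelia, had 26 and 178 reads, 7.48-fold higher.

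TXNIP was higher on large counts. This arrestin-like protein binds thioredoxin and lowers glucose uptake, and its gene is a textbook target of the glucose-sensing factors MLXIPL and MLXIP. It had 1861 wild-type and 9079 knockout-labelled reads, a log2 change of 2.44 (2.37 to 2.51), and footprints of 2480 and 20279. Its relative ARRDC4 had 123 and 460 reads, 4.14-fold higher. MLXIPL rose from 54 to 170 reads, 3.47-fold, while MLXIP had 422 and 456 reads and did not pass.

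Other genes among the 25 ranked highest have neural or cytoskeletal names. BEX5, of the brain-expressed X-linked genes, had 13 and 140 reads, and its relative BEX2 had 30 and 137. PDE2A, a cyclic nucleotide phosphodiesterase, went from 49 to 379 reads, 8.51-fold. SPTBN5, a spectrin, had 6 and 74 reads. PCDH9, a protocadherin, had 8 and 91 RNA reads but 24 and 15 footprints, so its footprints did not follow its RNA. Of the 25 genes ranked highest, 19 had enough footprint reads to be measured (50 over both libraries) and all 19 were at least 1.5-fold higher there. The minimum sums both footprint libraries, so a gene low in wild type passed it only where its knockout-labelled footprints were high. PCDH9 did not reach it, and the result for the 19 is partly set by this minimum. Among the 9794 genes measured in footprints 19.0% were higher and 20.1% lower by that rule.

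**Figure D2:**
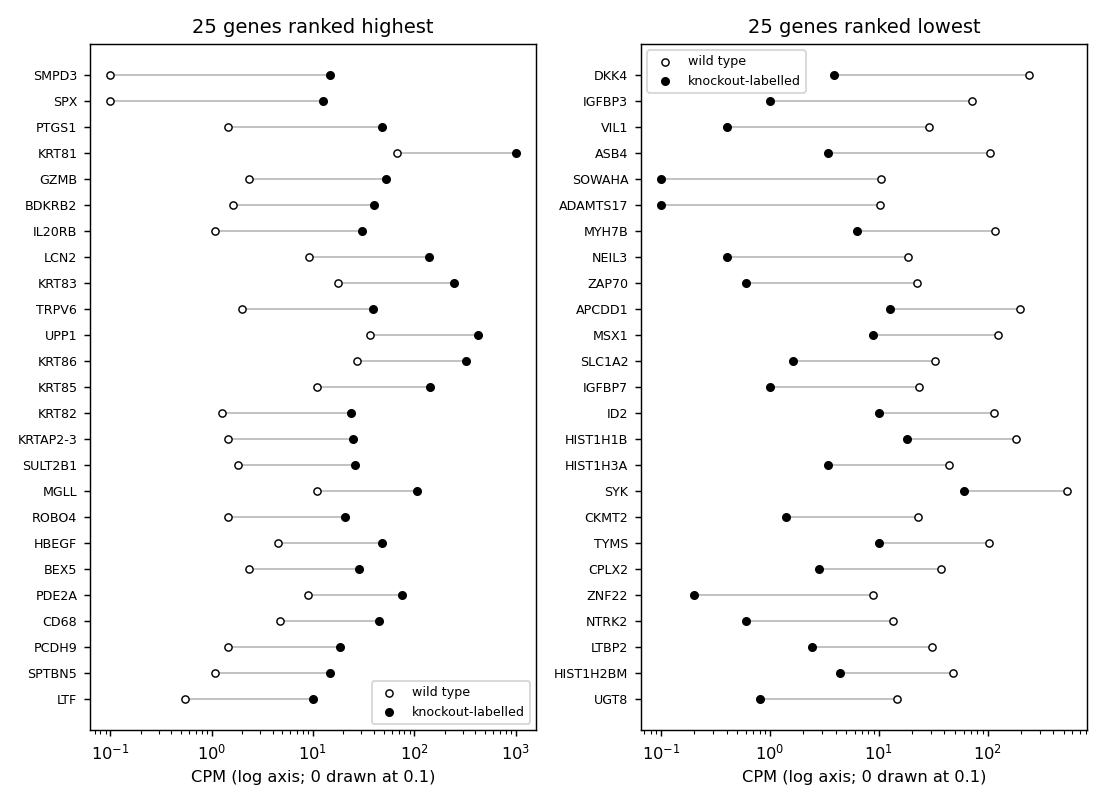
CPM in wild-type RNA (open circles) and knockout-labelled RNA (filled circles) of the 25 genes ranked highest (left) and lowest (right), on a log axis where 0 is drawn at 0.1. The lines join 1 gene's 2 libraries; SYK falls from 536 to 61.0 CPM and MGLL rises from 10.9 to 106 CPM.

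On the lower side, several of the leading genes code for growth-factor binding and matrix proteins. IGFBP7, a secreted protein that binds insulin-like growth factors, had 130 wild-type and 5 knockout-labelled reads, a log2 change of −4.42 (−6.20 to −3.29), with 208 and 28 footprints. LTBP2, a matrix protein of the latent TGF-beta binding family, had 169 and 12 reads, 12.2-fold lower. NELL2, a secreted neural protein, had 1899 and 288 reads, 5.93-fold lower, and 1195 and 176 footprints. Other members of the IGFBP family did not all go this way: IGFBP6 rose from 257 to 412 reads, and IGFBP2, with 558 and 362, was not called at 1.5-fold.

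Regulators were also lower. ID2, which blocks basic helix-loop-helix factors by pairing with them, had 632 and 50 reads, 11.3-fold lower, with 1176 and 153 footprints. SYK, a cytoplasmic tyrosine kinase best known from B cells and also present in epithelia, fell from 2956 to 303 reads, a log2 change of −3.13 (−3.31 to −2.96). NTRK2, the receptor of brain-derived neurotrophic factor, had 75 and 3 reads, a log2 change of −4.28 with an interval from −6.80 to −2.89. These differ widely in precision, since SYK has at least 303 reads in each library and NTRK2 has 3 in one.

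Enzymes on the lower side came from several pathways. CKMT2, a mitochondrial creatine kinase, had 126 and 7 reads and 258 and 4 footprints, 15.2-fold lower in RNA. UGT8, which makes galactosylceramide, had 80 and 4 reads, and LIG1, the DNA ligase of replication, had 200 and 16. TYMS, which makes thymidylate, had 566 and 50 reads, 10.1-fold lower. CPLX2, a regulator of vesicle fusion, had 203 and 14 reads. ZNF22, a zinc-finger protein, had 49 wild-type reads and 1 knockout-labelled read, a log2 change of −4.89 with an interval from −10.8 to −2.92.

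A pattern by gene order lay in the keratin cluster of chromosome 12, which holds the type II keratins, partners of type I keratins in epithelial intermediate filaments. KRT81 to KRT86 are hair keratins, KRT5 is the keratin of basal epithelial cells, and the KRT6 genes are made in hyperproliferative epithelium. Of 27 keratin genes on the chromosome 18 were measured. In map order KRT81, KRT86, KRT83, KRT85, KRT84 and KRT82 formed an unbroken run of higher genes between 52285913 and 52406355, and after KRT75, KRT6B, KRT6C, KRT6A, KRT5 and KRT74 formed a run of lower genes between 52446651 and 52573825.

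Within the higher run KRT85 had 61 and 717 reads, a log2 change of 3.70 (3.33 to 4.11), KRT82 had 7 and 118 reads, 4.13 (3.14 to 5.57), and KRT84 had 23 and 63, 1.59 (0.90 to 2.36). Shared sequence was low in 2 of these, with 1.94% of the 30-base words of KRT82 and 2.67% of those of KRT84 found in another gene. KRT81, KRT86 and KRT83 share 50.3%, 43.0% and 24.0%, so how reads were split among them is uncertain. KRTAP2-3, a keratin-associated protein of hair on chromosome 17, rose from 8 to 124 reads and shares 43.5%.

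In the lower run KRT5 had 5745 and 807 reads, a log2 change of −2.68 (−2.79 to −2.57), and KRT74 had 239 and 37, −2.52 (−3.08 to −2.04). KRT6B, KRT6C and KRT6A had 269, 171 and 135 wild-type reads against 87, 15 and 40, and KRT6B and KRT6C share 58.9% and 62.2% of their words with other genes, as does most of KRT6A. KRT75, between the runs, had 76 and 87 reads and was not called, and its footprints were 81 and 34. Footprints of the 11 genes in the 2 runs went the same way as their RNA. At the end of the cluster KRT8 fell from 16173 to 9172 reads, 1.59-fold, and its partner KRT18 from 26170 to 15373, 1.53-fold, both short of the 2-fold rule.

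**Figure D3:**
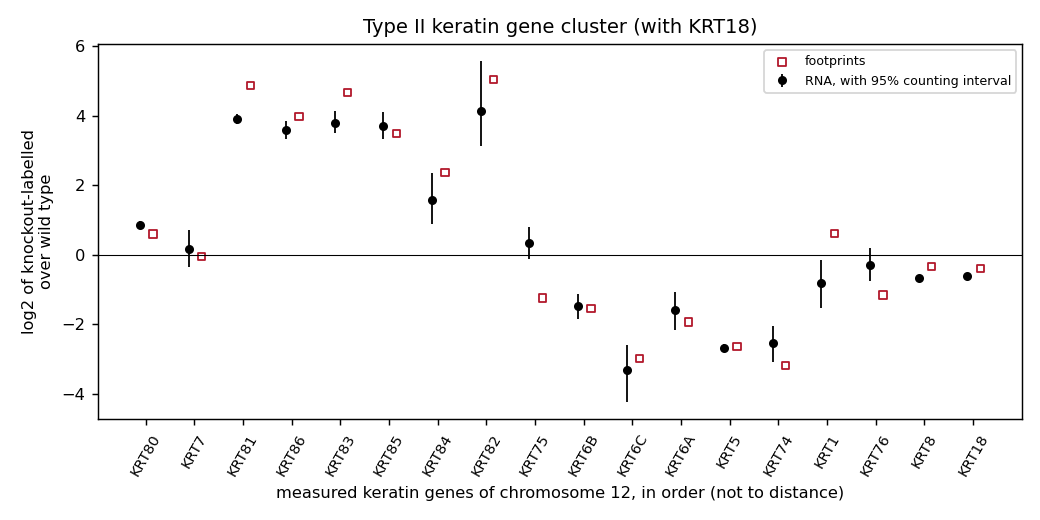
Log2 of knockout-labelled over wild type for the 18 measured keratin genes of chromosome 12, in map order and not to distance. Black points are RNA with 95% counting intervals and red squares are footprints; the 6 genes from KRT81 to KRT82 lie above 1.5 and the 5 from KRT6B to KRT74 lie below −1.4.

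The starts of keratins from both runs are shown because neighbours that moved in opposite directions carry the same TATA-like letters. ATAAAA is in capitals in each stretch, which covers bases 45 to 16 before the RefSeq start (GRCh38.p14) on the minus strand.

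KRT85, higher, chr12:52367497-52367526: cagctctccccaccaATAAAAggaccaggg
KRT84, higher, chr12:52385668-52385697: agatcaccacacacATAAAAggggtgcaag
KRT82, higher, chr12:52406351-52406380: tccatccccctaccagATAAAAggggggaa
KRT5, lower, chr12:52520410-52520439: cccagttctggaagggATAAAAagggggca
KRT74, lower, chr12:52573859-52573888: cctgggctcaacagggATAAAAggaggcag

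The first capital lies 29 to 31 bases before the start in all 5. On the gene's strand ATAAAA occurred within 60 bases before the start in 6 of the 7 measured keratins of the cluster with a promoter entry, KRT76 being the exception, and in 100 of 8279 measured genes (1.21%). These letters were chosen after the stretches had been read. Only 7 of the 18 measured keratins of the chromosome entered the count of ATAAAA. Within the runs KRT81, KRT83, KRT86, KRT6A, KRT6B and KRT6C had no entry. The RefSeq start of KRT5 lies 293 bases from the start of its counted transcript.

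Lists of genes by function were read with a lower bar, a change of at least 1.5-fold with an interval that excludes no change. By that rule 16.2% of all measured genes were higher and 17.8% lower, and each list's count is to be read against those shares. The plot of list members shows the spread within each list. Where several members moved, members also moved against them in most lists.

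**Figure D4:**
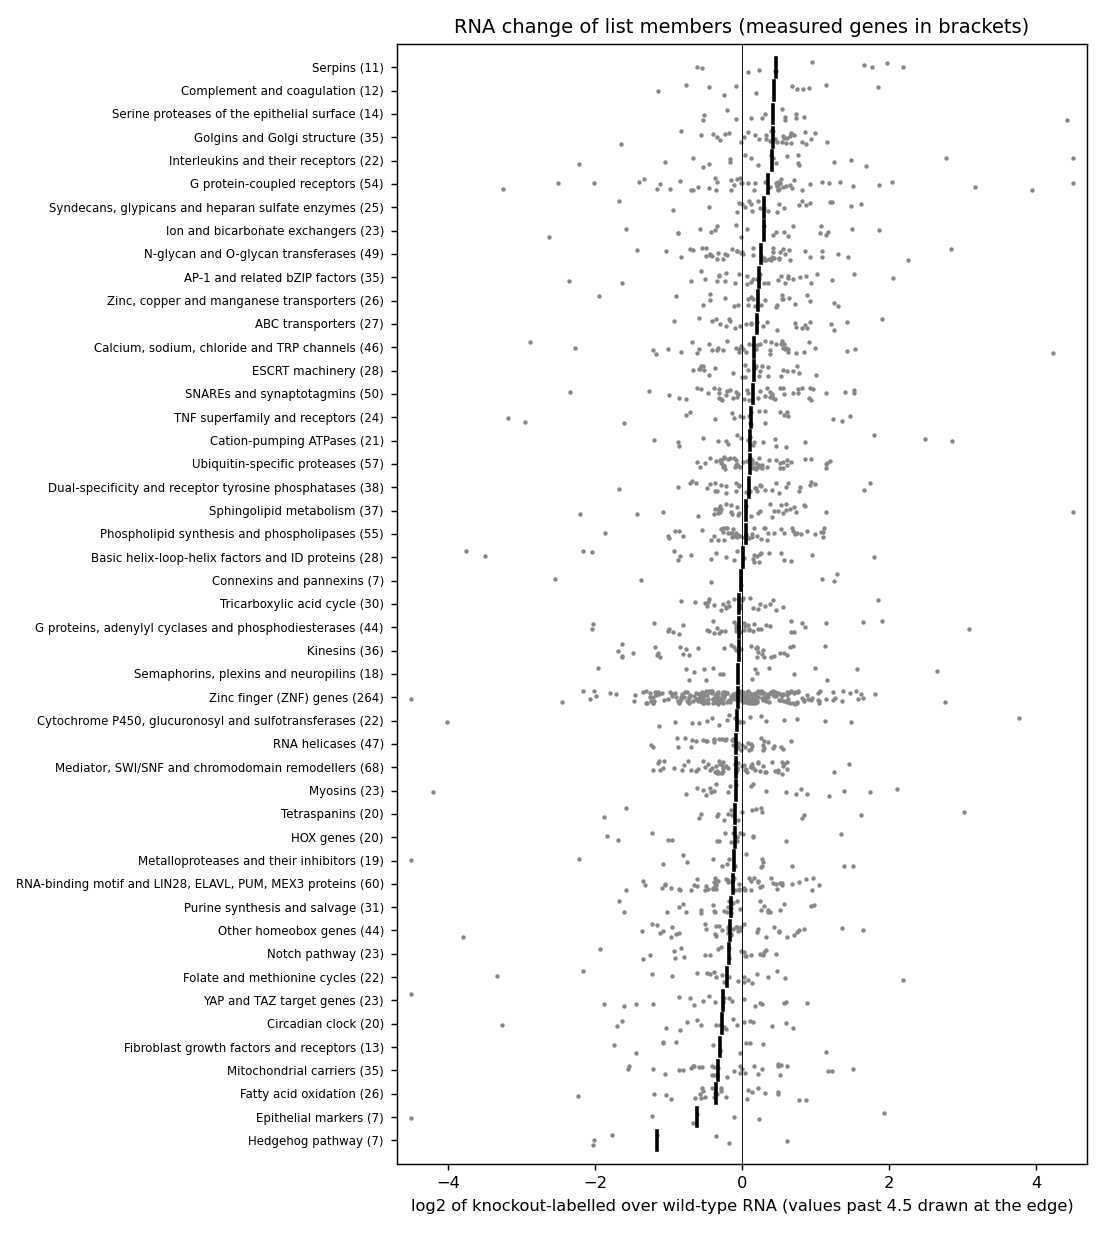
Log2 of knockout-labelled over wild-type RNA for the measured members (grey points) and the median (black bar) of 47 gene lists, with the number measured in brackets. Medians run from −1.15 for the Hedgehog pathway to 0.46 for the serpins, while members within a list spread much further.

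Of 22 interleukins and receptors measured, 9 were higher and 2 lower (median 0.41). Beside IL11 and the receptor subunit gene IL20RB, the higher genes included CSF2, the growth factor GM-CSF, with 43 and 109 reads, and IL1RAP, a co-receptor for IL1, with 20 and 59. IL4R had 39 and 84 reads. IL10, an anti-inflammatory cytokine, went the other way from 64 to 12 reads. The most abundant member that was not called was IL32, with 5164 and 3222 reads. With a minimum of 20 reads 15 members were higher.

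Protease inhibitors and surface proteases were called in 1 direction. Of 11 serpins 5 were higher and none lower (median 0.46): SERPINA1, the inhibitor of neutrophil elastase, rose from 148 to 456 reads, SERPINE2 from 33 to 118 and SERPINB5 from 16 to 67. SERPINB8 rose from 31 to 89 reads, and SERPINB1, at 478 and 589, was not called. In a list of 14 serine proteases, mostly of the epithelial surface, 5 were higher and none lower (median 0.43). KLK10 had 92 and 138 reads, and ST14, at 760 and 823, was not called. GZMB, among the higher genes of the list, is granzyme B of cytotoxic lymphocytes and not a protease of the epithelial surface. With a minimum of 1 read this protease list had 8 higher and 4 lower, and with the interval itself beyond 1.5-fold 1 was higher. Footprints in both lists had 5 members higher and none lower.

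In the complement and coagulation list 6 of 12 genes were higher and 2 lower (median 0.44). PLAU, the urokinase that activates plasminogen, rose from 42 to 138 reads, and its receptor PLAUR from 120 to 239. Their footprints rose from 75 to 235 and from 187 to 410. With a minimum of 20 reads 5 were lower and the median was 0.20. Among the complement regulators at the cell surface CD59 rose from 323 to 518 reads while CD46 fell from 607 to 246. The inhibitor TIMP1, in a list of metalloproteases and inhibitors with 3 of 19 higher and 5 lower (9 higher with a minimum of 20 reads, where the median went from −0.11 to 0.23), rose from 434 to 1109 reads, and ADAMTS19 fell from 136 to 26.

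G protein-coupled receptors were split, with 14 of 54 higher and 12 lower (median 0.35). With a minimum of 1 read 26 were higher and 27 lower, and the median was −0.09. With a minimum of 200 reads 7 were higher and 4 lower. NTSR1, the receptor of neurotensin, a gut peptide, rose from 704 to 2315 reads and from 177 to 461 footprints. GPR1 rose from 7 to 60 reads, and DRD5, a dopamine receptor, from 3 to 48, with a log2 interval from 2.52 to 6.48. GPR35 fell from 79 to 7 reads, 9.54-fold, and ADRA2C, an adrenergic receptor, from 525 to 117. Downstream, in 44 G proteins, cyclases and phosphodiesterases, 9 were higher and 8 lower: PDE4D fell from 998 to 218 reads as PDE2A rose. ADCY1 had 330 and 1115 RNA reads but 0 and 1 footprints.

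Ephrins and their receptors had 4 of 14 higher and 2 lower (median 0.25). In the Hedgehog pathway, where the ligand SHH acts through PTCH1 on the GLI factors, 4 of 7 measured genes were lower and none higher (median −1.15). SHH had 88 and 19 reads, its receptor PTCH1 796 and 177, and the factors GLI3 and GLI2 1332 and 353, and 134 and 54. PTCH1 and SHH were 4.04-fold and 4.09-fold lower. Footprints fell alongside for SHH (70 to 13), PTCH1 (142 to 37) and GLI3 (265 to 56), but for GLI2 they were 35 and 61. SUFU, an inhibitor of GLI, had 87 and 61 reads and was not called. With a minimum of 20 reads the median of the list was −0.70.

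In the Notch pathway 7 of 23 genes were lower and none higher (median −0.18). They included the targets NRARP (407 and 96 reads) and HES1 (147 and 76), the receptor NOTCH1 (421 and 200) and the ligands JAG1 (176 and 84) and DLL1 (43 and 16). The others were HES6 (168 and 59) and DTX4. NOTCH2, at 502 and 464, and JAG2, at 617 and 444, were not called. In footprints 5 of the 20 measured members were higher and 5 lower.

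Fibroblast growth factors, receptors and their antagonists had 5 of 13 lower and 1 higher. FGF19, the gut hormone that restrains bile acid synthesis in the liver, fell from 1190 to 394 reads, 2.72-fold, and FGF3 and FGF20 fell from 116 to 31 and from 73 to 31. Footprints of FGF19 went from 1800 to 523, and 9 of the 10 members measured in footprints were lower there. DUSP6, a phosphatase induced by ERK signalling and acting on ERK, fell from 1172 to 329 reads, 3.20-fold. It stood in a list of 38 dual-specificity and tyrosine phosphatases with 9 higher and 5 lower, in which DUSP1 rose from 48 to 137 and DUSP5 from 490 to 841.

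Genes known as targets of the co-activators YAP and TAZ had 8 of 23 lower and 2 higher (median −0.26). TGFBI, a matrix protein, fell from 1582 to 388 reads, ANKRD1 from 1266 to 490, and the partner factor TEAD4 from 334 to 110. MYOF rose from 871 to 1441. Among 24 genes of the TNF superfamily 4 were higher and 5 lower: the decoy receptor TNFRSF10D rose from 182 to 456 reads, and the decoy receptors TNFRSF6B and TNFRSF11B fell from 55 to 5 and from 69 to 20. TNFRSF6B lies in a run of lower genes described below.

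Semaphorins and their receptors had 5 of 18 higher and 4 lower. NRP1, a co-receptor for semaphorins and VEGF, rose from 288 to 766 reads and from 206 to 625 footprints, and SEMA3A, its secreted ligand, fell from 136 to 31. A ligand and its receptor thus moved in opposite directions. UNC5A, a netrin receptor that was named after its value was seen, had 53 and 219 reads, 4.56-fold higher, and PLXNB2 fell from 935 to 536.

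Transcription factors were read in 5 lists. Among 28 basic helix-loop-helix factors and ID proteins 3 were higher and 8 lower. EPAS1, the hypoxia-inducible factor HIF-2alpha, fell from 2551 to 556 reads, 4.13-fold, and from 1972 to 418 footprints. ASCL2, a factor of intestinal stem cells, fell from 346 to 69 reads. MXD3 had 52 and 3 reads, a log2 change of −3.76 (−6.29 to −2.34).

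The list of AP-1 and related basic leucine zipper factors had 11 of 35 higher and 3 lower (median 0.24). JUN rose from 246 to 519 reads and from 209 to 586 footprints, and CREB5 from 26 to 99 reads. CEBPA rose from 39 to 102 reads with 19 and 4 footprints, while CEBPD fell from 138 to 24 reads, 5.09-fold, and from 240 to 48 footprints. TEF, which belongs to this list and to the clock list, fell from 87 to 25 reads. MAFF, at 2126 and 2090, was not called.

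The circadian clock genes had 5 of 20 lower and 2 higher (median −0.27). DBP, an output factor of the clock, had 101 and 9 reads, 9.62-fold lower, with 106 and 8 footprints, and NR1D1, the clock repressor REV-ERBalpha, fell from 262 to 72 reads. PER1 fell from 146 to 64 reads, while NFIL3, which competes with DBP for the same DNA sites, rose from 92 to 134, and CRY1 from 153 to 209. The hour at which each library was collected is not given in the sources used here.

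Homeobox genes had 5 of 20 lower and 1 higher in the HOX list, and 10 of 44 lower and 5 higher outside it. HOXB8 fell from 191 to 53 reads, HOXB13 from 45 to 11 and HOXB6 from 201 to 77, while HOXB2 rose from 19 to 44 and HOXB9, at 185 and 159, was not called. CDX2, the intestinal homeobox factor and one of the epithelial markers, fell from 268 to 103 reads. CDH1, the adhesion molecule E-cadherin, went the opposite way, from 83 to 286 reads and from 88 to 275 footprints. Of the 7 epithelial markers measured, CDH1 was the 1 that was higher and 4 were lower.

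Of 35 golgins and Golgi proteins 11 were higher and 2 lower (median 0.42): GOLGA3 rose from 523 to 1049 reads, ARF4, a small GTPase of Golgi traffic, from 962 to 1717, and GOLGB1 from 327 to 567. COG5 and COG6, subunits of the tethering complex for retrograde traffic, rose from 425 to 693 and from 267 to 425, and COG4 was among the 2 lower genes. SNAREs and synaptotagmins had 11 of 50 higher and 6 lower, and ESCRT genes, at 5 of 28 higher and 2 lower, had about the higher share of all genes, 16.2%.

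Families were also formed from the letters of the gene symbol before its first digit, which gave 172 families of at least 8 measured genes, ranked by median. The members named from here to the end of the paragraph were chosen after their values were seen. In the TMED family, cargo receptors of coated vesicles between the endoplasmic reticulum and the Golgi, all 9 genes lay above 0.40 and 5 were called higher (median 0.63). TMED2 rose from 680 to 1115 reads and TMED5 from 297 to 456. TMED7 and the readthrough TMED7-TICAM2 share sequence. In the SEC family 8 of 24 were higher and none lower: SEC24D, a cargo-binding coat protein of vesicles leaving the endoplasmic reticulum, rose from 148 to 417 reads and SEC61A1, the pore through which new proteins enter it, from 956 to 1914. SEC23A, a coat partner of SEC24 proteins, had 408 and 367 reads and was not called. Of 2 other trafficking families, TRAPPC had none of 15 higher and 3 lower, and RAB 11 of 54 higher and 10 lower.

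Claudins, the strand proteins of tight junctions, ranked second of the 172 families by median, 0.66, with 5 of 9 higher and 1 lower. CLDN1 rose from 131 to 331 reads and from 83 to 278 footprints, CLDN12 from 235 to 496 reads and CLDN7 from 647 to 919, while CLDN11 fell from 359 to 210. CLDN4, at 886 and 992, was not called in RNA and had 507 and 1249 footprints. The family ranked first, NBPF with a median of 0.81 and 7 of 9 higher, consists of near-identical copies: NBPF1, with 58 and 161 reads, shares 58.3% of its words and NBPF20 89.9%, so these counts are uncertain one by one. The ranking itself chose these families.

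Beside histones and replication genes, several families of nuclear proteins lay on the lower side. Among the SRSF splicing factors 5 of 11 were lower and 1 higher (median −0.44): SRSF7 fell from 764 to 201 reads, 3.42-fold, SRSF2 from 516 to 246 and SRSF3 from 1425 to 799, whereas SRSF5 rose from 408 to 615. The nuclear pore family NUP had 7 of 21 lower and none higher, NUP107 falling from 315 to 126 reads and NUP85 from 241 to 100. LSM genes, whose rings bind the ends of RNAs, had 5 of 13 lower and none higher. Nuclear receptors of the NR family had 5 of 13 lower, among them NR2F1 with 103 and 36 reads and NR4A1 with 155 and 71.

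Lower genes made up 17.8% of all measured genes, and the helicases and the Mediator list lay near that share. So did the lower shares of the fatty acid oxidation and purine lists given below. The higher share of the ubiquitin-specific proteases, and both shares of the channel and ZNF lists, likewise lay near those of all genes. Near them too were both shares of the G protein, cyclase and phosphodiesterase list, the TNF superfamily, the tetraspanins and the RAB family. RNA helicases had 8 of 47 lower and 1 higher: DHX9 fell from 1075 to 418 reads and DHX15 from 878 to 335, and DDX17 rose from 661 to 944. In 60 RNA-binding proteins 13 were lower and 5 higher. RBM3, known as a cold-induced protein, fell from 455 to 137 reads and MSI2, a translation regulator of stem cells, from 1601 to 577. ZFP36L1, which promotes decay of mRNAs with AU-rich elements, rose from 1151 to 2149. Among 68 Mediator and remodelling genes 13 were lower and 4 higher, CHD4 falling from 2287 to 939 reads.

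Kinesins had 14 of 36 lower and 3 higher, though the median was −0.05. The lower ones leading the ranking were mostly motors of mitosis: KIF23 fell from 468 to 135 reads, KIF20A from 250 to 72 and KIF2C from 395 to 156. The most abundant members, KIF1C (2063 and 1752) and KIF5B (1133 and 1237), carry cargo between divisions and were not called. Myosins had 8 of 23 higher and 3 lower; MYL9, a regulatory light chain of contractile myosin, rose from 43 to 131 reads and MYO5B, which moves recycling vesicles to the apical membrane, from 175 to 412.

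Transporters were higher more often than lower in several lists. ABC transporters had 10 of 27 higher and 1 lower: ABCA3, a lipid pump, rose from 80 to 194 reads and from 19 to 116 footprints, and ABCG1, an exporter of cholesterol, from 125 to 262 reads. ABCA13 rose from 78 to 264 reads, with footprints of 831 and 773. Ion and bicarbonate exchangers had 6 of 23 higher and 4 lower, with SLC4A8, a bicarbonate carrier, falling from 161 to 23 reads.

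Metal transporters had 6 of 26 higher and 2 lower. SLC11A2, the iron importer DMT1, rose from 68 to 152 reads, and SLC30A3, a zinc carrier of vesicles, fell from 53 to 12. Among 21 cation pumps and lipid flippases 5 were higher and 3 lower: ATP8A2 rose from 14 to 94 reads and ATP2C2, a Golgi calcium and manganese pump, from 16 to 83, while ATP8A1, a lipid flippase, fell from 65 to 32. Mitochondrial carriers had 9 of 35 lower and 3 higher (median −0.33): the ADP-ATP carriers SLC25A4 and SLC25A5 fell from 500 to 217 and from 3115 to 1768 reads. Footprints of SLC25A5 were 2602 and 3110, so its RNA and footprints differed in direction.

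Channels and gap junctions were mixed. Of 46 calcium, sodium, chloride and TRP channels 9 were higher and 7 lower: ANO4 fell from 88 to 16 reads, CLCN4 from 61 to 7, and RYR1 rose from 32 to 78. Of 7 connexins and pannexins, which form pores between or in cell membranes, 3 were higher and 2 lower. GJB1 fell from 132 to 20 reads and GJB2 from 219 to 76, while PANX2, a pannexin, rose from 40 to 89.

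At the cell surface, syndecans, glypicans and the enzymes of their sulfated chains had 8 of 25 higher and 2 lower. SDC4, a syndecan of focal adhesions, rose from 2511 to 5202 reads and from 2034 to 4763 footprints, and SDC1 from 298 to 510 reads. CHST3 and CHST11 both put sulfate on chondroitin, at different positions of the sugar: CHST3 rose from 76 to 211 reads while CHST11 fell from 583 to 164. Transferases of N- and O-glycans had 10 of 49 higher and 5 lower, GALNT9 rising from 7 to 48 reads and MGAT5, which branches N-glycans, falling from 3494 to 1532. Tetraspanins had 4 of 20 higher and 3 lower, TSPAN1 rising from 66 to 184 reads.

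The small calcium-binding S100 proteins, named here after their values were seen, spread widely. S100A14 rose from 68 to 355 reads, S100P from 34 to 126 and S100A16 from 682 to 1652. S100A3, which is abundant in hair cuticle, fell from 389 to 46 reads, 7.54-fold, and S100A4, known from motile cells, from 3682 to 1182. S100A6, S100A10 and S100A11, each with over 1000 reads in both libraries, were at most 1.14-fold apart.

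Metabolic lists changed in single enzymes more than as groups. In the folate and methionine cycles 5 of 22 were lower and 2 higher: FPGS, which adds glutamates to folate, fell from 232 to 89 reads, and ALDH1L1, which oxidises one-carbon units, rose from 23 to 96. In the tricarboxylic acid cycle and its side reactions 1 of 30 was higher and 2 lower. That gene, IDH1, the cytosolic isocitrate dehydrogenase, rose from 487 to 1589 reads and from 615 to 1759 footprints, while MDH2, at 2495 and 1927, was not called. ACLY, which makes cytosolic acetyl-CoA, fell from 1395 to 706 reads.

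Fatty acid oxidation genes had 5 of 26 lower and 2 higher (median −0.36). CPT1A, the gate for fatty acids entering mitochondria, fell from 863 to 337 reads and ACOX3, a peroxisomal oxidase, from 70 to 13. In purine metabolism 6 of 31 were lower and 2 higher, with PFAS of the synthesis pathway falling from 376 to 167 reads and NT5E, which makes adenosine outside the cell, from 156 to 46. In sphingolipid metabolism 9 of 37 were higher and 4 lower. SPTLC3, a subunit of the enzyme that starts sphingolipid synthesis, fell from 43 to 8 reads, CERS6 from 1183 to 503, and SMPD1, acid sphingomyelinase, rose from 76 to 151. SMPD3, a neutral sphingomyelinase, had 0 and 74 reads, at least 27.4-fold higher against a floor of 3 counts in the wild-type library.

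Phospholipid enzymes had 11 of 55 higher and 6 lower. LPCAT2, which rebuilds phosphatidylcholine, fell from 430 to 106 reads, and PLD3 rose from 257 to 497. Among cytochromes P450 and conjugating enzymes, 4 of 22 were higher and 5 lower; CYP2R1, which hydroxylates vitamin D, rose from 53 to 105 reads and from 11 to 94 footprints. Ubiquitin-specific and related proteases had 9 of 57 higher and none lower (1 lower with DESeq2 size factors), with OTUB2 at 66 and 133 reads and USP30 at 42 and 87. USP22, at 2532 and 2763, was not called. The 264 zinc-finger genes named ZNF had 39 higher and 54 lower, with ZNF185 rising from 30 to 185 reads and ZNF462 falling from 262 to 59.

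Position was read in bins of 5 Mb with at least 10 measured genes, 374 in all. The median change of a bin lay below −0.4 in 16 bins and above 0.4 in 9. By chromosome the medians ran from −0.20 on chromosome 18 to 0.15 on chromosome 14. The stretches described next were chosen, and their genes named, after their values were seen.

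The first 10 Mb of chromosome 4 held 56 measured genes with a median of −0.76, of which 32 were lower and 4 higher at 1.5-fold, while the other 291 genes of the chromosome had a median of −0.06. Footprints of the stretch had a median of −0.83. WFS1, a membrane protein of the endoplasmic reticulum, fell there from 684 to 138 reads and CTBP1, a co-repressor, from 853 to 330. ADD1, at 303 reads on each side, was not called. The first 15 Mb of chromosome 18 had 18 of 38 genes lower and 2 higher (median −0.57) against −0.12 in the rest of the chromosome. TYMS and MYL12B (1469 and 865 reads) lie there, and YES1, at 1065 and 976, was not called. Other bins had medians of that size. The bin from 10 to 15 Mb on chromosome X had 7 of 11 genes lower (median −0.71), and that from 85 to 90 Mb on chromosome 6 had 9 of 15 lower (median −0.70), SYNCRIP, an RNA-binding protein, falling from 1068 to 387 reads. The highest bin, from 170 to 175 Mb on chromosome 3, had 7 of 13 genes higher and 2 lower (median 0.66). PRKCI, a kinase of cell polarity, rose there from 767 to 1088 reads. With a minimum of 200 reads that bin had 5 of 10 genes higher and 2 lower, and its median was 0.22. The highest bin was then that from 130 to 135 Mb on chromosome 3, at 0.56. The number of copies of these stretches in the 2 cell populations was not tested.

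**Figure D5:**
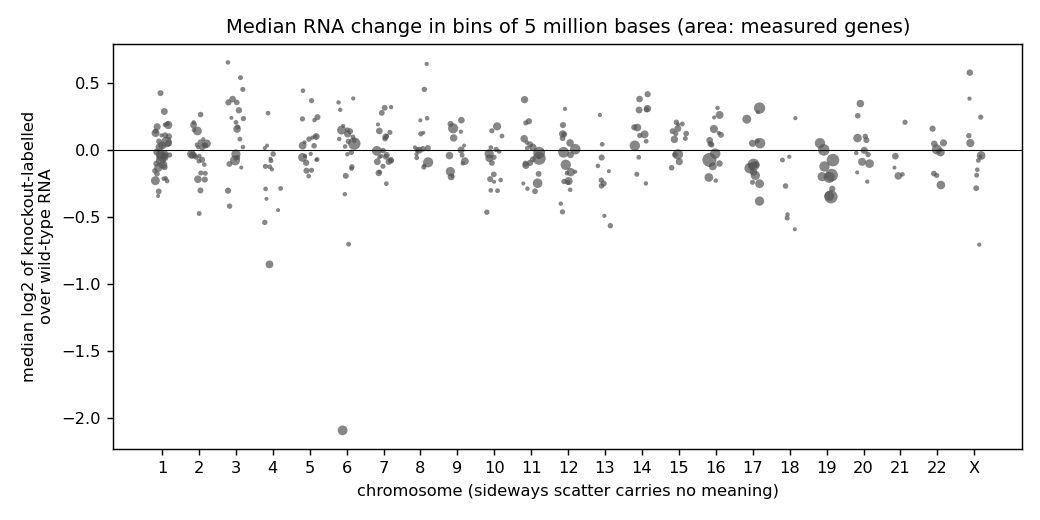
Median log2 of knockout-labelled over wild-type RNA in bins of 5 Mb with at least 10 measured genes, by chromosome; the area of a point grows with its genes and the sideways scatter carries no meaning. The bin near −2.1 on chromosome 6 holds the histone genes and the bin near −0.85 on chromosome 4 is its first.

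There were 10 runs of at least 4 neighbouring measured genes called the same way at 2-fold, 2 higher and 8 lower. Of the runs 5 held histone genes and 2 were keratins. Amid the histones of chromosome 6 the butyrophilins BTN3A2, BTN2A2, BTN3A1 and BTN3A3, surface proteins seen by gamma-delta T cells, formed a run of higher genes between 26365264 and 26453415. BTN2A2 had 21 and 64 reads and BTN3A3 10 and 52, and BTN3A2 and BTN3A3 share over 20% of their words with other genes. Between 25 and 30 Mb on that chromosome all 39 histone genes measured were lower, and of the 20 other genes 9 were higher and none lower at 1.5-fold (median 0.59).

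The other runs were lower. On chromosome 17, between 81952507 and 82034202, NOTUM, ASPSCR1, STRA13, LRRC45 and RAC3 had 503, 296, 196, 86 and 100 reads in wild type against 110, 83, 58, 20 and 23. NOTUM, an enzyme that removes the lipid from Wnt proteins, was 4.10-fold lower. RAC3 had 43 and 60 footprints, so the run was not uniform in footprints. On chromosome 20, between 63658294 and 63708013, RTEL1, TNFRSF6B and ARFRP1 were lower together with a readthrough of the first and second, so the run holds 3 separate genes. ARFRP1 fell from 161 to 54 reads.

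Footprints were a separate readout of the same 2 genotypes. Of the 695 genes called higher in RNA, 507 were also measured in footprints, and 346 of these (68.2%) were at least 1.5-fold higher there and 13 at least 1.5-fold lower. Of the 908 lower genes, 758 were measured and 549 (72.4%) were lower and 16 higher. These shares stand against the 19.0% and 20.1% given above for all genes measured in footprints. Examples of opposite change, chosen after their values were seen, were BRF2, with 18 and 49 RNA reads and 74 and 10 footprints, and RFX3, with 86 and 18 RNA reads and 21 and 54 footprints. SSBP3 likewise had 40 and 94 RNA reads and 191 and 95 footprints.

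A few transcripts carried much of the RNA and few ribosomes. Footprints amounted to less than 5% of RNA reads in 179 genes, against a median of 71% over all measured genes. These genes took 9.3% of wild-type and 11.3% of knockout-labelled RNA counts, and 27 (15.1%) were higher and 12 (6.7%) lower at 2-fold. TAOK1, a kinase gene, had 25596 and 48566 RNA reads but 486 and 770 footprints, and ZNF844 had 7856 and 14580 RNA reads but 31 and 147 footprints. PLCG2, with 171726 and 228437 RNA reads and 2362 and 2170 footprints, took 10.8% of all CPM gained by genes that gained, and TAOK1 took 3.73%. Other abundant genes of the set fell. ZNF354B went from 78568 to 49465 RNA reads (log2 change −0.52) and MTRNR2L6 from 84035 to 61686 (−0.29). They took 2.83% and 1.86% of all CPM lost, the largest losses of any gene. Whether the reads of these 179 genes come from the mRNA named was not tested.

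Gene properties were read by putting the measured genes into 5 groups of nearly equal size. By the GC content of the transcript, the median went from 0.04 in the lowest group to −0.09 in the highest, and the share called lower from 5.79% to 11.1%. By transcript length, the median of each group lay within 0.05 of 0. By reads the share of calls differed more: 27.5% of the genes with the fewest reads were called either way and 9.52% of those with the most. Of the latter 3.03% were higher and 6.48% lower.

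Promoters were searched for 15 motifs on both strands within 250 bases before the start, and beside AP-1 a few shares differed between the lists. CCAAT, the letters of the NF-Y box, was in 36.0% of all 8279 promoters, in 46.2% of those of lower genes and in 30.4% of those of higher genes. TTTGAA, the cell cycle homology element, was in 7.48% of all, 12.9% of lower and 10.5% of higher genes. Without histones, CCAAT was in 43.4% and TTTGAA in 11.4% of lower genes. The E2F forms TTTGGCG and TTCCCGC were in 4.39% and 11.4% of lower genes, against 2.57% and 9.69% of all. TATAAA was in 11.3% of lower genes and 4.64% of all, and in 6.9% of lower genes once histones were left out. CACGTG, the E-box letters bound by factors of the kind of MLXIPL, was in 7.65% of higher and 9.13% of all genes.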

How the data were processed

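Total RNA of 2 SW480 populations was analysed, with their footprint libraries beside it. The authors deposited raw read counts as whole numbers, with each gene represented by 1 Ensembl transcript. Cutadapt 1.10, HISAT2 2.1.0, Bowtie 1.1.2 and the build GRCh38 appear in the submitters' processing notes. What each tool did, the annotation, the region counted, and how reads with several matches or equal molecular identifiers were treated is not given in the sources used here, so PCR copies may be counted.

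Libraries were scaled by TMM in edgeR 4.0.16 (R 4.3.3). Log2 ratios used a prior count of 0.5. Each ratio has an exact 95% interval (Clopper-Pearson, conditional on the summed count, from SciPy 1.17.1) for counting error only. Genes with 50 reads over both RNA libraries were kept and called at 2-fold, or list members at 1.5-fold, with an interval that excludes no change. With 1 library per group there was no test. The calculation was tested on simulated data. Positions and shared 30-base words came from GENCODE 29, and promoters from RefSeq, used where the starts lay within 1000 bases of each other. The uncertain genes share over 20% of their words.

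Genes named were IGF2BP1, the 25 ranked first on each side, in each list up to 6 called members by that ranking and up to 2 abundant uncalled ones, and genes in runs; others were chosen after their values were seen. The members and all 88 lists were chosen with earlier results of these data known, and 47 lists are reported. Some genes and 1 list are not reported here. Alternatives were DESeq2 1.42.0 size factors, library totals, other minimums, priors and call rules.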

Additional observations from a re-analysis of the deposited data

How the results depend on the processing

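The totals of 695 higher and 908 lower genes stayed within 1.5 times under the 3 other scalings (678 to 747 higher and 857 to 923 lower), a minimum of 20 reads and a prior count of 2. The fold alone could not change the totals, since every gene past 2-fold already had an interval that excluded no change. The totals moved further under 3 settings. With a minimum of 200 reads there were 306 higher and 501 lower genes, with a minimum of 1 read 1304 and 1396, and with the interval itself beyond 2-fold 258 and 420. The share of calls that were higher was 43.4% and ran from 42.3% to 46.6% over the scalings. Leaving out genes with few footprints or genes that share over 20% of their words, both chosen after seeing the data, gave 668 and 896, and 655 and 833. The 51 single genes recomputed, namely the 25 on each side and IGF2BP1, kept their direction and side of the threshold wherever they were measured, 28 of them at a minimum of 200 reads. The 25 on each side had been chosen for intervals far from no change in these same counts. Their result could therefore hardly have come out otherwise. Of 94 higher and lower counts over the 47 lists, 47 moved by over 1.5 times at that minimum, 64 with the interval beyond the fold, 24 with a minimum of 1 read, 9 with 20 reads, and at most 4 under each other setting. Of their 47 medians 8, 9 and 6 moved with minimums of 200 reads, 1 read and 20 reads. Over the scalings 2 lists turned sign: the median of the connexins and pannexins went from −0.01 to as much as 0.03, and that of the tricarboxylic acid cycle from −0.04 to 0.00 with totals without PLCG2 and MTRNR2L. With a minimum of 20 reads the median of the semaphorin list went from −0.06 to 0.14, and with 200 reads that of complement and coagulation from 0.44 to −0.08. The median of the exchangers went from 0.30 to 0.06 without the genes with few footprints, and that of the kinesins from −0.05 to 0.06 without the genes that share words. No paired analysis was possible because there was 1 library per group and the labels carry no replicate numbers. For the same reason no library could be left out.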
